A study of Homo sapiens with 4 samples.

Results

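Kinetochore and centromere genes were followed by poly-A RNA-seq in the human colorectal cancer line HCT116, in a derivative whose nuclear protein Ki-67 carries a degron tag. The members were the 31 rows of the deposited table, of 34826 in all, whose names belong to a list of inner kinetochore, outer kinetochore and CENP-A loading genes. Every one of the 31 names was found on exactly 1 row, and all are protein-coding. The tested libraries were IAA replicates 1 and 2, from tagged cells given indole acetic acid (IAA, an auxin that triggers destruction of the tagged protein) at 0.5 mM for 24 h. They were set against Control replicates 1 and 2, from the same tagged cells with no treatment. For each sample, 3 dishes were grown over 2 days. The degron tag was therefore shared by all 4 libraries, and IAA and the loss of the tagged protein could not be told apart. The labels do not say whether the tagged line is a single clone.

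The kinetochore is the protein assembly that joins a centromere to spindle microtubules in mitosis. Its base is chromatin that holds the histone H3 variant CENP-A, which the chaperone HJURP and the Mis18 proteins deposit. A constitutive network of CENP proteins sits on that chromatin, and the Knl1, Mis12 and Ndc80 complexes, together with the Ska complex, make the contact with microtubules and carry the spindle checkpoint. In cycling cells many of these genes are transcribed mainly towards G2 and mitosis, through promoter elements that include the cell cycle genes homology region (CHR), bound by the DREAM and B-MYB complexes. Ki-67 coats mitotic chromosomes and is not a kinetochore subunit.

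RefSeq promoter windows (250 bases before to 50 after a transcription start, GRCh38.p14) were matched by symbol for 26 of the 31 members. MIS18A, CENPH, CENPM, CENPL and KNL1 were not matched. The CHR letters TTTGAA, searched on both strands, stood in the windows of 12 of the 26 members (46.2%), against 13.0% of 9830 protein-coding genes that were measured here and matched, and 15.2% of all windows. The letters began between 60 bases before and 50 bases after the start in 10 of the 12, the others being HJURP at -111 and CENPC at -90. The stretches around them are shown because, of the motifs searched, this one had the largest gap in percentage points between the members and the measured coding genes. Capitals mark TTTGAA or its reverse complement TTCAAA, letters run 5′ to 3′ on the strand of the gene, and positions are on GRCh38.p14.
CENPA, chr2:26786027-26786054, plus strand: ggagcgagcgaTTTGAAcgcgagcggcg
HJURP, chr2:233854630-233854657, minus strand: acgcaaatttgTTTGAAaggcccaatca
CENPC, chr4:67545577-67545604, minus strand: gtgtctccgggTTCAAAcccaggcacag
CENPN, chr16:81007206-81007233, plus strand: caattggtggcTTTGAAggcgcggcgag
CENPO, chr2:24793450-24793474, plus strand: gttggtttggtTTTGAAgacgtgga
NDC80, chr18:2571543-2571570, plus strand: cggcggagaatTTCAAAttcgaacggct
NUF2, chr1:163321959-163321986, plus strand: gaggcggcaagTTTGAAaagtgatgacg
SPC25, chr2:168890417-168890444, minus strand: agtgcactaggTTTGAAatcggaaagtt
ZWINT, chr10:56361274-56361301, minus strand: tcgactgtgacTTCAAAgtaatcttagg
SKA1, chr18:50375069-50375095, plus strand: gcggcgggcggTTTGAAttttgcttac
SKA3, chr13:21176539-21176566, minus strand: cggcgccgagaTTCAAActagtggcggg
MAD2L1, chr4:120066808-120066835, minus strand: gcgtcgttactTTTGAAacgcttggcgg
NDC80, NUF2, SPC25, ZWINT, SKA1 and SKA3 belong to the outer kinetochore, CENPC, CENPN and CENPO to the inner network, CENPA and HJURP to centromeric chromatin, and MAD2L1 to the spindle checkpoint. SPC25 held the letters a second time, at -247. TTCGAA, a variant of the element, stood in NDC80 at position 4, in OIP5 and in CENPW, so that 3 of 26 members (11.5%) had it, against 2.27% of the measured coding genes.

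In percentage points, the gap between members and measured coding genes was smaller for the other elements. CCAAT, the box bound by NF-Y, stood in the windows of 17 of 26 members (65.4%), against 43.2% of the measured coding genes, and 7 members held both CCAAT and TTTGAA. The E2F letters GGCGGGAA stood in 5 members (19.2%), against 6.40% of the measured coding genes. The GC box GGGCGG was no more common in members (65.4%) than in the measured coding genes (78.6%), and the E box CACGTG (3.85% against 12.7%) and the TATA-like letters TTTAAA (3.85% against 10.4%) were rarer. The E2F forms TTTGGCGC and TTTCGCGC stood in 1 member each (3.85%), against 1.38% and 1.08% of the measured coding genes. All shares count either strand, each motif was counted on its own even where letters can be shared (GGGCGG with GGCGGGAA), and a match describes letters rather than a bound site. A gene with several windows was counted if any of them held the letters. CENPP held CCAAT only in its window at chromosome 9, 92600007 to 92600306, far from its GENCODE start at 92325484. Windows of CENPI, CENPT, DSN1 and NSL1 held neither the CHR letters nor their variant, no CCAAT and no E2F letters of the first form.

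The windows of CENPA, CENPN and SPC25 held the CHR letters, the CCAAT box and the first E2F form together, and are printed whole because they show the arrangement of the 3 elements. Capitals mark these letters on either strand, and each run is in the orientation of the gene.
CENPA, chr2:26785806-26786105, plus strand: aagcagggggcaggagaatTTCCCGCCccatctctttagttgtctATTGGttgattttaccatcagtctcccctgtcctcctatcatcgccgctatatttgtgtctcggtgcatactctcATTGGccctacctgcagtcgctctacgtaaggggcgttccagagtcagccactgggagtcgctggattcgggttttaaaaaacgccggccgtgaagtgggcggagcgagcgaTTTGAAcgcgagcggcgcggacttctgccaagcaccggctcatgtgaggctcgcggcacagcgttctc
CENPN, chr16:81006964-81007263, plus strand: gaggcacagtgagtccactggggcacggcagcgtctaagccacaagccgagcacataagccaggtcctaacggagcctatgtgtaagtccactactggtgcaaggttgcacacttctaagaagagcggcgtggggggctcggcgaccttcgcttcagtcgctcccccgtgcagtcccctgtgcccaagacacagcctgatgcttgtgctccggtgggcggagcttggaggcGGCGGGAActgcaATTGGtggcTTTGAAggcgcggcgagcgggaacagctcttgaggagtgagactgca
SPC25, chr2:168890381-168890680, minus strand: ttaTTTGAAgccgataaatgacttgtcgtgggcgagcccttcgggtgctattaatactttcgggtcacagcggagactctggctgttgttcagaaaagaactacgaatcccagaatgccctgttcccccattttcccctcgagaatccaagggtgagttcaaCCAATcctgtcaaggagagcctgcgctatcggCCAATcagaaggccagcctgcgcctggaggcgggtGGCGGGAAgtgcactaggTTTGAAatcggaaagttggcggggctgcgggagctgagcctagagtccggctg
In SPC25 and CENPN the E2F letters, at positions -21 and -19, stood just upstream of the CHR letters that began at -3 and 4. In CENPA the E2F letters began at -231, far from the CHR letters at -18.

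**Figure D1:**
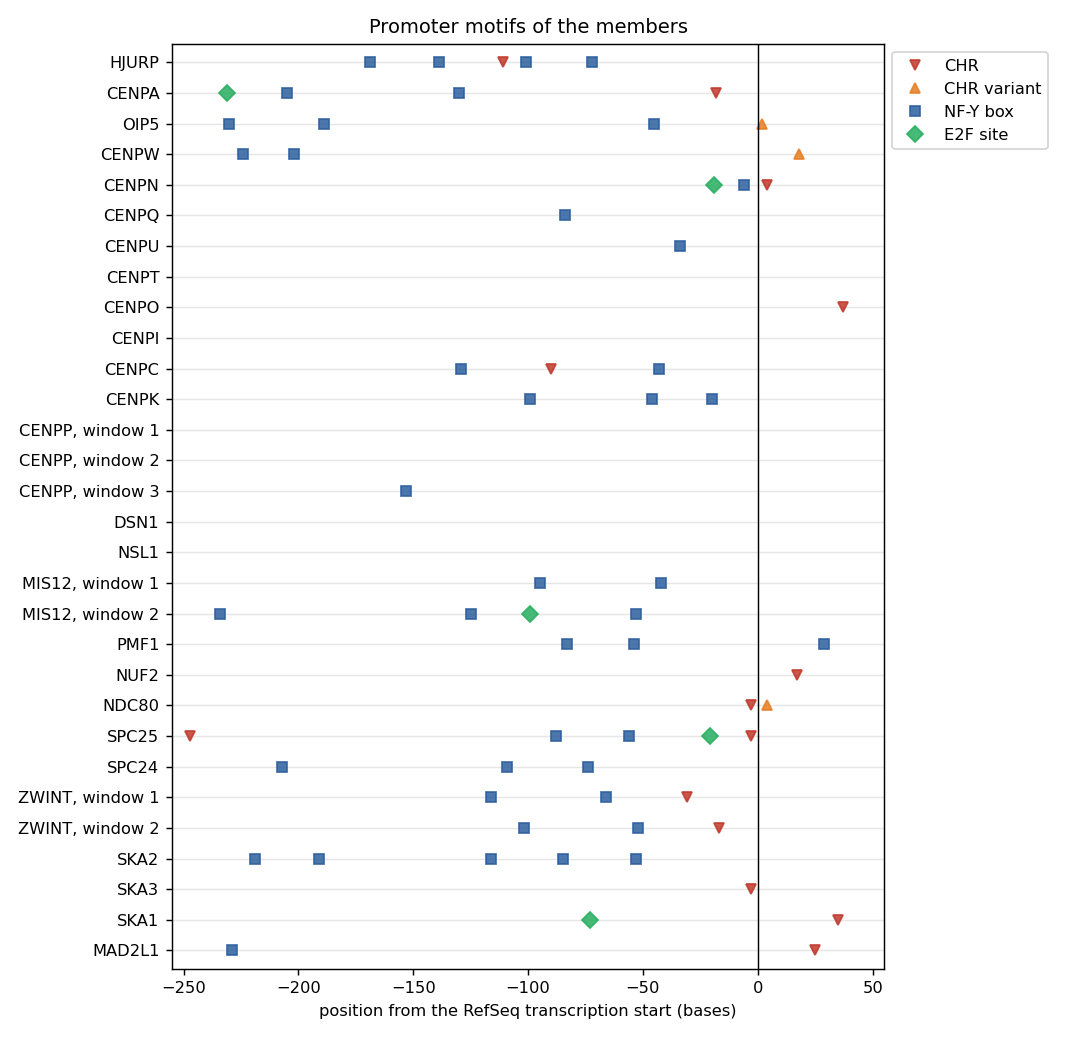
Positions of motif letters in the promoter windows of the 26 matched members, in bases from the RefSeq transcription start (horizontal axis), with 1 line per window. Red triangles are the CHR letters, orange triangles the CHR variant, blue squares the CCAAT box (labelled NF-Y box) and green diamonds the E2F letters, on either strand. The CHR letters lie near the start in 10 of the 12 members that hold them, and CENPI, CENPT, DSN1 and NSL1 hold none of the 4 motifs.

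Values are TPM (reads per gene divided by exon length and scaled to the same sum in each library, as the deposited table gives them), and the libraries held 38733981 to 49448043 reads recovered from those values. The tagged gene's mRNA, MKI67, had 174 and 149 TPM in IAA replicates 1 and 2, against 198 and 151 TPM in Control replicates 1 and 2, which does not check removal of the protein. Of 8 colon epithelium markers 7 averaged at least 1 TPM, and the 8 together summed to 3741 and 4127 TPM in the IAA libraries, against 3875 and 3879 TPM in the controls. The keratins KRT8, KRT18 and KRT19 made up most of that sum. Over the 4 libraries CDX2 had 11.9 to 14.7 TPM, KRT20 2.13 to 2.70 TPM and VIL1 only 0.148 to 0.255 TPM. Blood cell markers summed to 0.683 to 1.02 TPM and endothelial markers to 0.499 to 0.881 TPM over the 4 libraries. Fibroblast markers summed to 15.3 and 13.9 TPM in the IAA libraries, against 15.1 and 14.4 TPM in the controls. COL1A1 made up nearly all of that sum, with 14.4 and 13.3 TPM in the IAA libraries, against 14.8 and 13.7 TPM in the controls. COL3A1 reached 0.692 TPM in IAA replicate 1, and COL1A2, DCN, LUM and PDGFRB were under 0.5 TPM in every library. The libraries were not copies of each other, with a chi-square per gene of 5.75 to 15.8 over the 6 pairs, and IAA replicate 1 correlated least with the others. In bulk RNA, fewer cells in a cell cycle stage and less RNA per cell cannot be told apart.

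Most members were expressed above the median coding gene. The mean over the 4 libraries ran from 1.67 TPM for CENPP to 109 TPM for ZWINT, with a median over members of 38.8 TPM, against 20.6 TPM over 12456 protein-coding genes tested. A total of 24 members lay above that coding median and 4 (ZWINT, MAD2L1, SKA2 and CENPW) lay in the top 10% of genes tested. Together the 31 members took 1412 and 1389.5 of every 1000000 reads in IAA replicates 1 and 2, against 1372 and 1364 in Control replicates 1 and 2. This share of reads gives long genes more weight. In TPM the members summed to 1411.5 and 1405.1 in IAA replicates 1 and 2, against 1414.6 and 1370.5 in Control replicates 1 and 2. On that measure the groups overlapped and Control replicate 1 was highest. A member held between 185 and 7790 reads in a library, so that counting error (95% exact Poisson, which covers reads and not independent molecules) was 2.23% to 14.7% of the value. It was at most 10.3% for every member other than CENPP.

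**Figure D2:**
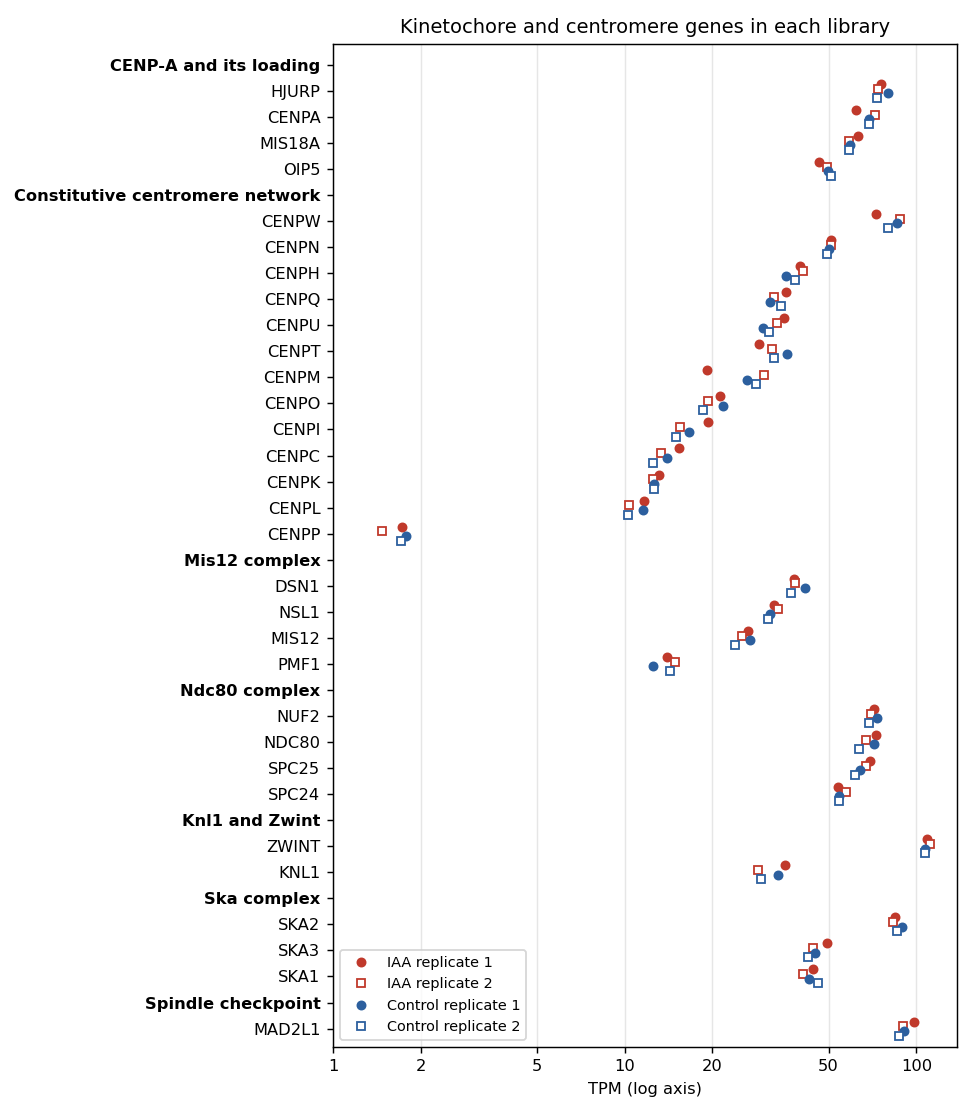
TPM of the 31 members in each library (horizontal log axis), grouped by role and ordered by mean within a group. Red marks are the IAA libraries and blue marks the Control libraries, with filled circles for replicate 1 and open squares for replicate 2. The marks of the 2 groups lie close together or mixed for nearly all genes, CENPP stands lowest at 1.47 to 1.78 TPM, and CENPM has its IAA replicate 1 mark well to the left of the other 3.

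No member was called different between IAA and control cells. Limma on log2(TPM + 1), with Benjamini-Hochberg adjustment over 17896 genes, called 0 of the 31 members at an adjusted p under 0.05, where it called 0% of all genes tested. Each member had an adjusted p of 0.999, and 0 members reached an unadjusted p under 0.05, against 1.54% of all genes on the higher side and 2.61% on the lower. Limma voom on the recovered reads also called 0 of the 31 members, where it called 1 of 17896 genes tested. All 31 members passed the requirement of at least 1 TPM in at least 2 libraries. An exact permutation test of 2 against 2 libraries cannot go below a two-sided p of 0.333 and was not used.

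The intervals of the members show how large a change this fit allowed, each for 1 gene alone and from 2 libraries per group. Their log2 fold changes (IAA over control, on the TPM + 1 scale) lay between -0.17 for CENPM and 0.16 for CENPU, with standard errors from 0.07 to 0.21. The 95% interval lay within a 1.5-fold change in either direction for 29 of 31 members, the exceptions being CENPM and CENPP, and within a 1.25-fold change for 22. These counts were not made over all genes. For CENPP the interval was -0.60 to 0.44, and -0.91 to 0.66 with a pseudocount of 0.1. The median absolute log2 fold change was 0.05 over the members and 0.09 over all genes tested, and the median standard errors were 0.09 and 0.13. The median log2 fold change was 0.03 over the members, against -0.02 over all genes tested, with 20 members positive and 11 negative. Of all genes tested, 44.5% were positive and 55.5% negative. The sign of the member median depended on single libraries, since it was -0.01 without IAA replicate 1 and also without Control replicate 2. Of the members, 15 kept their sign whichever library was left out. The 2 IAA values exceeded both control values in 6 members (19.4%), against 11.8% of all genes tested, and fell short of both in 3 (9.68%), against 17.7%.

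**Figure D3:**
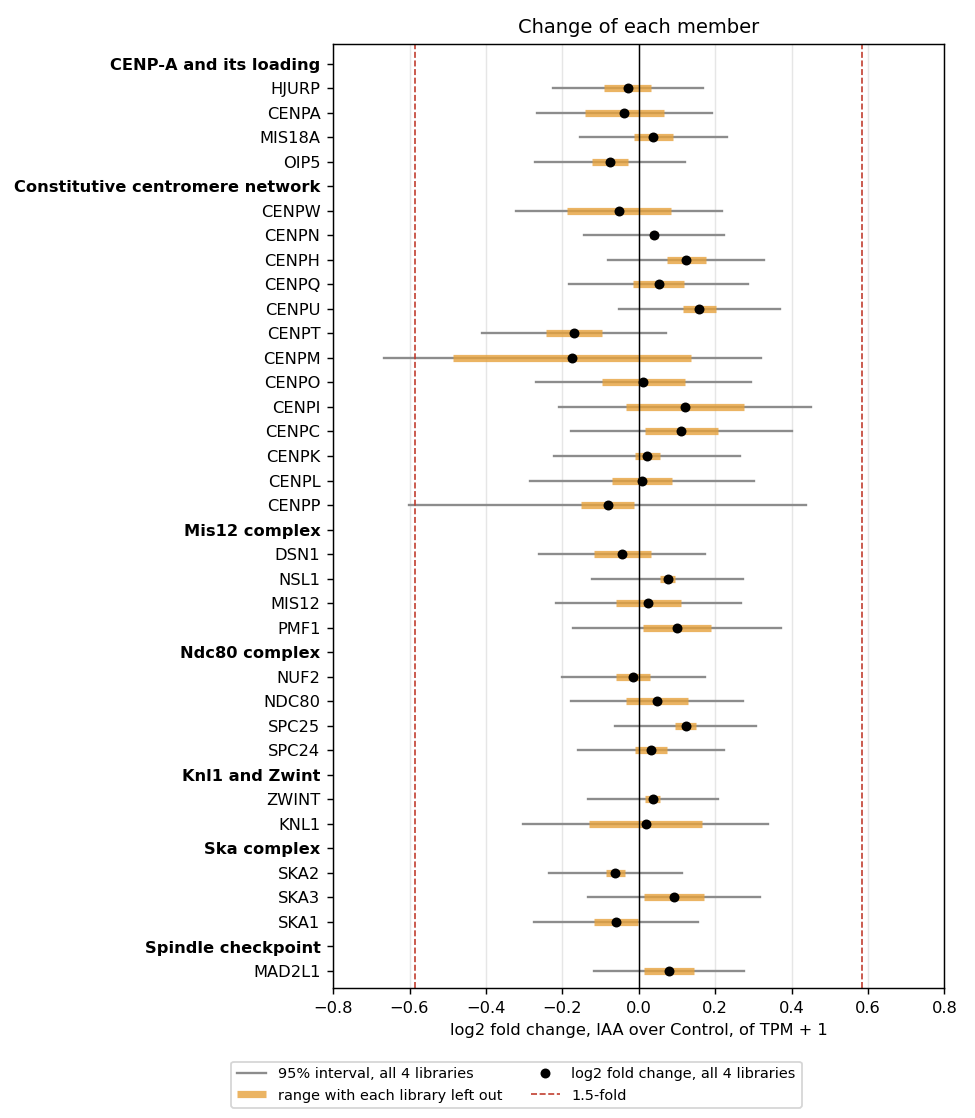
Log2 fold change of each member, IAA over Control, on the TPM + 1 scale (horizontal axis), with black points for the fit on all 4 libraries and grey lines for its 95% intervals. Orange bars span the values with each library left out in turn, and red dashed lines mark a 1.5-fold change. All points lie between -0.17 and 0.16, all grey lines cross 0, and the orange bar of CENPM, from -0.49 to 0.14, is the widest.

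Genes of CENP-A chromatin and its loading stood high and close together. CENPA, the centromeric histone (ENSG00000115163.14, GRCh38 chromosome 2, 26764289 to 26801067, on the plus strand), had 62.3 and 72.1 TPM in IAA replicates 1 and 2, against 68.6 and 69.05 TPM in Control replicates 1 and 2. Its lowest and highest values were thus both in IAA libraries, on either side of nearly equal controls. HJURP, the chaperone that delivers CENP-A (ENSG00000123485.11, chromosome 2, 233833416 to 233854566, minus), had 76.0 and 73.8 TPM in the IAA libraries, against 79.8 and 73.2 TPM in the controls. OIP5, the Mis18-beta subunit that marks centromeres for loading (ENSG00000104147.8, chromosome 15, 41309268 to 41332621, minus), had 46.2 and 49.4 TPM in the IAA libraries, against 49.9 and 50.9 TPM in the controls. It was 1 of the 3 members below both controls, with a log2 fold change of -0.08 ± 0.08 (SE, limma adjusted p = 0.999). OIP5 shares 38.0% of its exon bases with the antisense gene OIP5-AS1. The use of strand in counting is not given in the sources used here, so whether reads of the pair were kept apart is not known. MIS18A, the partner of OIP5, averaged 60.8 ± 3.07 TPM in IAA cells and 59.1 ± 0.469 TPM in control cells (SD, n = 2 each). The ratio of HJURP to CENPA in TPM stayed between 1.02 and 1.22 over the 4 libraries, and that of OIP5 to MIS18A between 0.735 and 0.866. The ratio of OIP5 to MIS18A was lowest in IAA replicate 1.

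The constitutive network spanned the widest range of levels. Its 13 genes ran from CENPP to CENPW, with a median of 25.9 TPM, and 9 of 13 had a positive and 4 a negative log2 fold change. Of all genes tested, 44.5% had a positive log2 fold change. CENPW, a histone-fold protein that pairs with CENP-T (ENSG00000203760.8, chromosome 6, 126340174 to 126348875, plus), had 72.7 and 88.0 TPM in IAA replicates 1 and 2, against 86.0 and 80.0 TPM in Control replicates 1 and 2. The IAA libraries again bracketed both controls. CENPT, which links the network to the Ndc80 complex (ENSG00000102901.12, chromosome 16, 67828157 to 67847811, minus), had 28.8 and 31.9 TPM in the IAA libraries, against 35.9 and 32.6 TPM in the controls. Its log2 fold change, -0.17 ± 0.10 (SE), was the second lowest of the members, and both IAA libraries lay below both controls, with a gap between groups smaller than the spread within either (limma adjusted p = 0.999). The ratio of CENPW to CENPT was 2.53 and 2.76 in the IAA libraries, against 2.40 and 2.45 in the controls.

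CENPU, CENPQ, CENPO and CENPP are subunits of 1 subcomplex of the network, through which the mitotic kinase PLK1 is recruited. CENPU (ENSG00000151725.11, chromosome 4, 184694618 to 184734133, minus) had 35.3 and 33.2 TPM in IAA replicates 1 and 2, against 29.8 and 31.3 TPM in Control replicates 1 and 2. Both IAA values exceeded both controls, and its log2 fold change of 0.16 ± 0.09 (SE), with 95% limits of -0.05 and 0.37, was the highest of the members (limma adjusted p = 0.999). CENPQ averaged 34.1 ± 2.30 TPM in IAA cells and 32.9 ± 2.08 TPM in control cells (SD, n = 2 each). CENPO averaged 20.2 ± 1.38 TPM in IAA cells and 20.1 ± 2.24 TPM in control cells. CENPP (ENSG00000188312.13, chromosome 9, 92325484 to 92620533, plus) had only 1.72 and 1.47 TPM in the IAA libraries, against 1.78 and 1.70 TPM in the controls. Those values rested on 200 and 185 reads in the IAA libraries, against 205 and 259 reads in the controls, and CENPO exceeded CENPP by a ratio of 10.9 to 13.1 although their proteins act in the same subcomplex. CENPP shares 38.0% of its exon bases with IPPK on the other strand, and CENPO shares 26.97% with ADCY3. Smaller shares on the other strand were 11.7% for CENPU with PRIMPOL, 10.8% for CENPT with TSNAXIP1 and 12.8% for CENPN with CMC2. Since the use of strand in counting is not given, whether reads of these pairs were kept apart is not known.

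CENPH, CENPI, CENPK and CENPM make up another subcomplex of the network and did not share a level. CENPH averaged 40.5 ± 0.676 TPM in IAA cells and 37.1 ± 1.87 TPM in control cells, with both IAA libraries above both controls (log2 fold change 0.12 ± 0.08, SE, limma adjusted p = 0.999, n = 2 each). CENPK (ENSG00000123219.12, chromosome 5, 65517766 to 65563171, minus) had 13.1 and 12.5 TPM in IAA replicates 1 and 2, against 12.6 and 12.6 TPM in Control replicates 1 and 2. CENPI had 19.4 and 15.4 TPM in the IAA libraries, against 16.7 and 15.0 TPM in the controls. It was the member with the next widest spread after CENPM, with a ratio of 1.29 between its highest and lowest library.

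CENPM was the member that varied most between libraries. CENPM (ENSG00000100162.14, chromosome 22, 41938721 to 41947164, minus) had 19.2 and 30.05 TPM in IAA replicates 1 and 2, against 26.2 and 28.3 TPM in Control replicates 1 and 2. The counting interval in IAA replicate 1, 17.4 to 21.1 TPM from 405 reads, lay below those of the other 3 libraries, of which the lowest began at 24.1 TPM. These intervals cover counting error alone, which the libraries exceeded over genes in general. With all 4 libraries the log2 fold change was -0.17 ± 0.20 (SE, limma adjusted p = 0.999). Without IAA replicate 2 it was -0.49, with an adjusted p of 0.00563 by limma, in a fit that takes the spread of the 1 remaining IAA library from the controls and had infinite prior degrees of freedom. That fit called 3.28% of 17488 genes lower and 4.04% higher, so that 1 of 31 members is near the share of all genes. Without IAA replicate 1 it was 0.14. CENPM is singled out here after its values were seen. The ratio of CENPM to CENPI was 0.9902 in IAA replicate 1 and 1.95 in IAA replicate 2, against 1.57 and 1.88 in the controls.

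CENPC and CENPN, which contact CENP-A nucleosomes, and CENPL, the partner of CENPN, also lay at different levels. CENPN averaged 51.0 ± 0.0839 TPM in IAA cells and 49.6 ± 0.555 TPM in control cells (SD, n = 2 each) and was the steadiest member, with a ratio of 1.04 between its highest and lowest library. CENPL (ENSG00000120334.15, chromosome 1, 173799550 to 173824720, minus) had 11.6 and 10.3 TPM in IAA replicates 1 and 2, against 11.5 and 10.3 TPM in Control replicates 1 and 2. Replicate 1 was the higher in each group, but the labels do not say that equal replicate numbers mark a shared day. CENPC averaged 14.4 ± 1.45 TPM in IAA cells and 13.2 ± 0.993 TPM in control cells.

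The Ndc80 complex, a rod of 4 subunits that binds microtubules directly, was the most even group. Its subunits averaged 54.9 TPM (SPC24) to 70.9 TPM (NUF2) over the 4 libraries. NUF2 (ENSG00000143228.12, chromosome 1, 163266576 to 163355764, plus) had 71.4 and 69.7 TPM in IAA replicates 1 and 2, against 73.5 and 69.04 TPM in Control replicates 1 and 2. NDC80, its partner at the microtubule end, averaged 69.9 ± 3.94 TPM in IAA cells and 67.6 ± 5.44 TPM in control cells (SD, n = 2 each), and the ratio of NUF2 to NDC80 was 0.982 to 1.08 over the libraries. SPC25 (ENSG00000152253.8, chromosome 2, 168834132 to 168913371, minus), which anchors the rod to the inner kinetochore, had 69.3 and 67.2 TPM in the IAA libraries, against 63.9 and 61.4 TPM in the controls. Both IAA values exceeded both controls, with a log2 fold change of 0.12 ± 0.07 (SE) and 95% limits of -0.06 and 0.31 (limma adjusted p = 0.999). SPC24, the partner of SPC25, averaged 55.6 ± 2.37 TPM in IAA cells and 54.3 ± 0.282 TPM in control cells.

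The Mis12 complex, which bridges the inner network and the Ndc80 complex, lay lower. DSN1, its regulated subunit (ENSG00000149636.15, chromosome 20, 36751791 to 36773818, minus), had 37.9 and 38.3 TPM in IAA replicates 1 and 2, against 41.4 and 37.3 TPM in Control replicates 1 and 2. NSL1 (ENSG00000117697.14, chromosome 1, 212726153 to 212791782, minus) had 32.6 and 33.5 TPM in the IAA libraries, against 31.5 and 31.1 TPM in the controls, both above both controls with a log2 fold change of 0.08 ± 0.08 (SE, limma adjusted p = 0.999). MIS12 averaged 25.9 ± 0.976 TPM in IAA cells and 25.4 ± 2.19 TPM in control cells (SD, n = 2 each). PMF1 averaged 14.4 ± 0.656 TPM in IAA cells and 13.4 ± 1.26 TPM in control cells, and its exons share 23.3% of their bases with the read-through gene PMF1-BGLAP on the same strand.

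Of the Knl1 complex, the scaffold lay far below its partner. ZWINT, which recruits the RZZ checkpoint complex (ENSG00000122952.16, chromosome 10, 56357228 to 56361275, minus), was the highest of all members, with 108 and 111 TPM in IAA replicates 1 and 2, against 107 and 107 TPM in Control replicates 1 and 2. Both IAA values exceeded both controls, with a log2 fold change of 0.04 ± 0.07 (SE, limma adjusted p = 0.999). KNL1, the scaffold that docks the BUB kinases, averaged 32.0 ± 4.79 TPM in IAA cells and 31.5 ± 3.12 TPM in control cells (SD, n = 2 each). The ratio of ZWINT to KNL1 was 3.07 and 3.90 in the IAA libraries, against 3.18 and 3.67 in the controls, lower in replicate 1 of each group.

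In the Ska complex, which steadies attachments on depolymerising microtubules, SKA2 was higher than its partners in every library. SKA2 (ENSG00000182628.12, chromosome 17, 59109951 to 59155269, minus) had 84.5 and 83.3 TPM in IAA replicates 1 and 2, against 89.1 and 86.1 TPM in Control replicates 1 and 2. Both IAA libraries were below both controls, with a log2 fold change of -0.06 ± 0.07 (SE, limma adjusted p = 0.999). SKA3 (ENSG00000165480.15, chromosome 13, 21153595 to 21176602, minus) had 49.5 and 44.3 TPM in the IAA libraries, against 45.1 and 42.7 TPM in the controls. SKA1 averaged 42.7 ± 2.47 TPM in IAA cells and 44.5 ± 2.08 TPM in control cells (SD, n = 2 each). The ratio of SKA2 to SKA1 was 1.88 to 2.07 over the 4 libraries. MAD2L1, the spindle checkpoint protein that inhibits the anaphase-promoting complex (ENSG00000164109.13, chromosome 4, 120055608 to 120067074, minus), had 98.4 and 89.8 TPM in the IAA libraries, against 90.5 and 87.4 TPM in the controls, with a log2 fold change of 0.08 ± 0.08 (SE, limma adjusted p = 0.999).

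The order of levels depended on the length used, a comparison added after the data were seen. The deposited TPM divides by the bases of all exons of a gene, which for the members was 1.00 to 2.66 times the length of the principal transcript, and more than 2 times for CENPL, CENPK, CENPT and PMF1. Where several transcripts were tagged principal, the longest was taken. The deposited TPM of each member was multiplied by this length ratio, with no other gene rescaled. The products are therefore not TPM, and none was below the deposited value. By this measure ZWINT was still first at 138 and CENPP last at 1.87. NUF2 and NDC80 moved to ranks 2 and 3, at 121 and 114, ahead of MAD2L1 at rank 5. CENPT moved to rank 10, at 76.3, against rank 20 and 32.3 TPM in the deposited scale, and CENPL to 29.1, against 10.9 TPM. Since each member was multiplied by 1 length ratio in every library, its ratios between libraries stayed those of the deposited TPM. TPM recomputed from principal lengths over all genes would also change the scaling of each library, and was not computed. Fold changes on the TPM + 1 scale would shift for low genes.

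Differences between replicates went with gene length and, in the IAA pair, with GC content. IAA replicate 1 held the highest value for 13 members, of median exon length 3600 bases, and the lowest for 6 (CENPA, OIP5, CENPM, CENPT, CENPW and SPC24), of median 1880.5 bases. Control replicate 2 held the lowest value for 14 members, of median 3710.5 bases, and the highest for 2. IAA replicate 2 was highest for 8 and lowest for 6, and Control replicate 1 highest for 8 and lowest for 5. These counts were not made over all genes. Across the 31 members, which share the same libraries, the log2 ratio of IAA replicate 1 to IAA replicate 2 correlated with log2 exon length at a Pearson r of 0.596 (Spearman rho 0.590). For Control replicate 1 over Control replicate 2 the r was 0.496 (rho 0.619). Over 12422 protein-coding genes tested the same values were 0.324 (rho 0.399) and 0.310 (rho 0.396). With the GC content of the principal transcript the r over the members was -0.505 (rho -0.338) in the IAA pair and -0.125 (rho -0.113) in the control pair. For the coding genes, GC content was instead that of the longest protein-coding transcript of each gene. With that measure their values were -0.460 (rho -0.571) in the IAA pair, larger in size than those for length, and -0.0273 (rho -0.0223) in the control pair. The median absolute log2 ratio between replicates was 0.10 in the IAA pair and 0.10 in the control pair. Whether length or GC content set any member's value was not tested.

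**Figure D4:**
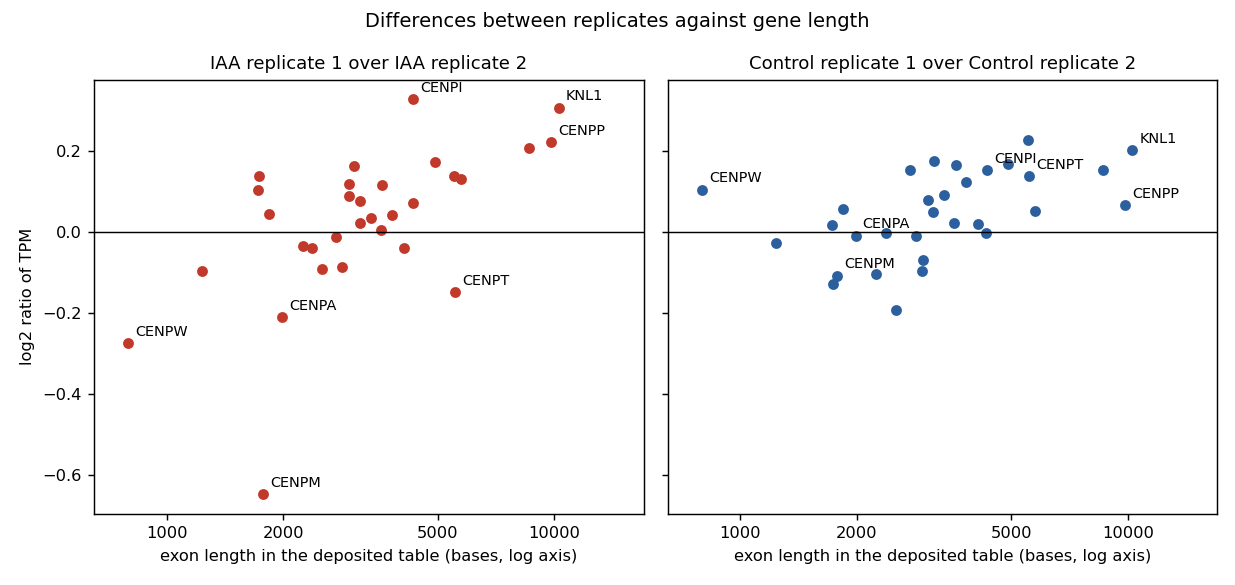
Log2 ratio of TPM between the replicates of each group (vertical axis) against exon length in the deposited table (horizontal log axis) for the 31 members, with IAA replicate 1 over IAA replicate 2 on the left in red and Control replicate 1 over Control replicate 2 on the right in blue. The long genes KNL1 and CENPP lie above 0 in both panels. CENPM, CENPW and CENPA lie below 0 in the IAA pair, CENPM farthest.

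Members with the CHR letters in their promoter windows had the higher median level. The 12 with TTTGAA had a median of 66.7 TPM (13.8 to 109 TPM), against 32.3 TPM (1.67 to 85.8 TPM) in the 14 matched members without it. Over the measured coding genes the medians were 18.9 TPM with and 21.7 TPM without the letters. This split was made after the values were seen and carries no test. Log2 fold changes of IAA over control had a median of 0.04 in members with the letters and 0.02 in those without.

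No other gene examined in the pathway was called. Of 25 further kinetochore, centromere and checkpoint genes (among them the BUB kinases, the RZZ and chromosomal passenger complexes, CENP-E and CENP-F), all 25 were tested, 0 were called by limma and 0 reached an unadjusted p under 0.05. Limma called 0% of all genes tested. An unadjusted p under 0.05 was reached by 1.54% of all genes on the higher side and 2.61% on the lower. Their median log2 fold change was -0.01, with 10 positive and 15 negative, where 44.5% of all genes tested were positive and 55.5% negative. INCENP, the scaffold of the passenger complex, had 79.2 and 78.1 TPM in IAA replicates 1 and 2, against 94.4 and 79.7 TPM in Control replicates 1 and 2. MAD1L1, the kinetochore anchor of MAD2, had 10.4 and 11.6 TPM in the IAA libraries, against 12.4 and 11.4 TPM in the controls. ZW10, of the RZZ complex, had 36.6 and 30.7 TPM in the IAA libraries, against 30.7 and 29.8 TPM in the controls, and CENPB, which binds alpha-satellite DNA, had 106 and 114 TPM in the IAA libraries, against 107 and 97.2 TPM in the controls. For these 4 genes, those with the smallest p in each direction, the log2 fold changes were -0.14, -0.11, 0.14 and 0.10 (limma adjusted p = 0.999 each).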

How the data were processed

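RNA of 2 IAA and 2 control samples was measured as poly-A libraries read in pairs of 150 nt, per the labels' protocols. The authors deposited TPM values for 34826 genes. Builds named in the submitters' processing notes are GRCh38.p12 and hg38, and tools are DESeq2 1.20.0 and featureCounts 1.5.2, none with a stated role. The sources used here give neither the aligner nor the use of strand. All identifiers, names and starts matched GENCODE 29. Ends differed for 7172 genes, so coordinates are those of the release. TPM times length was a whole multiple of 1 step per library for 100% of genes (tolerance 1e-06), which gave reads per gene. Limma 3.58.1 in R 4.3.3 (lmFit, eBayes with trend) was fitted on log2(TPM + 1) for the 17896 genes that reached 1 TPM in 2 or more libraries, without a replicate term, two-sided, with Benjamini-Hochberg adjustment over all of them and a threshold of 0.05. Fold changes on this scale understate those of low genes. The code was tested on simulated data. P-values measure only the spread between these samples, called biological replicates in the labels. Values in every library are given, by rule, for the highest member and the one with the smallest p of each role group, and for the 3 highest and 3 lowest members; others were chosen after their values were seen. Members and lists were chosen with earlier results of these data known. Promoter windows and their sequences are from RefSeq (GRCh38.p14), whose starts can differ from the GENCODE gene start. Alternatives tried were other pseudocounts, no filter, median-of-ratios scaling, protein-coding genes alone, voom, a replicate block and leaving out each library.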

Additional observations from a re-analysis of the deposited data

How the results depend on the processing

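No member was called in either direction under the 7 alternatives that kept the 4 libraries (pseudocounts of 0.1 and 0.5, no filter, median-of-ratios scaling, protein-coding genes alone, voom and the replicate block). The adjusted p of a member was 0.954 to 1.000 across them, and 0 signs changed. Over all genes, 12 were higher and 25 lower on protein-coding genes alone, where the prior degrees of freedom became infinite, and voom called 1 higher and 0 lower. Leaving out a library gave 0 to 1 lower and 0 higher members (CENPM without IAA replicate 2) and 0 to 707 higher and 0 to 573 lower genes. The median over members was then -0.012 to 0.056.

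The sign changed in at least 1 left-out fit for 16 of 31 members. The log2 fold changes ranged from -0.14 to 0.066 for CENPA, -0.090 to 0.032 for HJURP, -0.013 to 0.089 for MIS18A, -0.034 to 0.28 for CENPI, -0.011 to 0.056 for CENPK and -0.49 to 0.14 for CENPM. They ranged from -0.071 to 0.087 for CENPL, -0.096 to 0.12 for CENPO, -0.014 to 0.12 for CENPQ, -0.19 to 0.084 for CENPW, -0.059 to 0.11 for MIS12 and -0.12 to 0.031 for DSN1. They ranged from -0.032 to 0.13 for NDC80, -0.059 to 0.030 for NUF2, -0.011 to 0.075 for SPC24 and -0.13 to 0.17 for KNL1. CENPC, CENPH, CENPN, CENPU, NSL1, PMF1, SPC25, ZWINT, SKA3 and MAD2L1 stayed positive, and OIP5, CENPP, CENPT, SKA1 and SKA2 negative, in these 4 fits.

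The labels do not say that equal replicate numbers mark a shared day, and the pairing has no other basis. Deviations of the 2 libraries numbered 1 from their group means correlated at -0.07 over genes, and with the replicate number as a block 0 genes were called and the smallest adjusted p of a member was 0.954.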
